A study of Mus musculus with 16 samples.

Results

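CX3CR1+ macrophages sorted from healing ligament grafts were compared between the first and the fourteenth day after surgery. The 4 libraries of this population, 2 from day 1 and 2 from day 14, were taken as the labels name them out of 16 libraries that also cover CD9+ macrophages, F4/80- myeloid cells and Ly6G+ neutrophils on the same days. Every library came from adult male wild-type C57BL/6 mice that had undergone anterior cruciate ligament reconstruction (ACLR), in which a tendon graft is passed through bone tunnels, and from the interface tissue that forms between tendon and bone. The cells were live, lineage-negative, CD45+ Ly6G- CD11b+ F4/80+ CX3CR1+ CD9- cells, so that both days share operation, strain, sex and sort gate and differ in time. The labels do not say whether both days were sorted and prepared together. A difference between such batches cannot be told apart from one of time. There is no unoperated or day 0 sample in this comparison. Each library pooled cells of several mice, and the mice of day 1 are not those of day 14, so the spread between libraries is one between pools. RNA was measured by bulk RNA-seq. In a bulk sample, fewer cells of a type and less RNA per cell cannot be told apart.

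CX3CR1, the receptor of the chemokine fractalkine, and CCR2, the receptor of the chemokine CCL2, are carried by blood monocytes. Classical monocytes carry high CCR2 and Ly6C, enter injured tissue within hours, and there take on inflammatory or, later, clearing and repair-associated states of macrophages. Patrolling monocytes carry more CX3CR1 and less CCR2. In wounds the early cells make interleukin 1 and chemokines that draw neutrophils and further monocytes, under the transcription factor NF-κB and, where oxygen is short, the hypoxia-inducible factor HIF-1α.

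Depth was 19814119 and 17440228 assigned reads in the day 1 libraries and 10254500 and 9996159 in those of day 14. Levels are given throughout as CPM, read counts scaled to a common library size. Log2 CPM values of replicates correlated at 0.989 on both days, across genes of the same pair of libraries. Transcripts of the gate were present in all 4 libraries. Itgam (CD11b) stood at 223 and 264 CPM on day 1 and 177 and 194 CPM on day 14, and Adgre1 (F4/80) at 171 and 184 on day 1 and 143 and 165 CPM on day 14. Csf1r, the receptor of the macrophage growth factor CSF1, lay between 767 and 950 CPM, and Ly6g, the neutrophil antigen gated out, was at most 0.65 CPM. These few transcripts are those the label names, and not every marker went with them. Fcgr1, another macrophage marker, was lower on day 14 (log2 fold change -1.54). The 17 neutrophil markers given below, Ly6g among them, summed to 1815 and 1726 CPM on day 1 and 878 and 985 CPM on day 14. Libraries of day 14 stood apart in some transcripts of connective tissue and red cells. Col3a1, a fibrillar collagen, was at 0 and 0.105 CPM on day 1 and 0 and 30.5 CPM on day 14, and the globin gene Hbb-bs at 1.41 and 1.05 on day 1 and 4.53 and 37 CPM on day 14, so that both were highest in the second day 14 library. The cartilage collagen Col2a1 was highest in the first, at 0.307 and 0 on day 1 and 14.9 and 1.58 CPM on day 14.

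Among the 15 largest losses in CX3CR1+ macrophages from day 1 to day 14 were those of the neutrophil-attracting chemokine Cxcl3, the arginine-degrading enzyme Arg1, the inducible nitric oxide synthase Nos2, the acute-phase gene Saa3 and osteopontin (Spp1). Folds were smaller among the gains. The 15 largest were led by Prg4, Col1a1 and Hbb-bs, each far higher in the second day 14 library than in the first. The transcription factors Cebpb and Irf4 and the lectin gene Cd209a were also among these 15. Cebpa, Klf2 and Klf4, further transcription factors, rose outside them. Of 11998 genes tested, 703 (5.86%) were differentially expressed genes (DEGs), that is, had an adjusted p under 0.05 and at least a 2-fold difference in the quasi-likelihood test of edgeR, adjusted after Benjamini and Hochberg. On day 14, 287 (2.39%) were higher and 416 (3.47%) lower. The median fold was 2.92 among the higher and 3.80 among the lower DEGs, and 95 higher against 196 lower DEGs differed at least 4-fold. In 702 of the 703 the 2 libraries of one day lay wholly on one side of those of the other. The DEGs were selected on these same libraries, which favours such separation, so the count is no separate support. The median log2 fold change over all genes tested was 0.03. The shares of 2.39% higher and 3.47% lower and this median are the background for the counts of every gene list below. By biotype, 616 of the DEGs were protein-coding, 25 long noncoding RNAs and 34 pseudogenes. Without the second day 14 library, in a fit where the lone day 14 sample is assumed to vary like the other groups, 150 genes were higher and 284 lower, and without the first 194 and 274. Without the second day 1 library the higher DEGs numbered 185.

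**Figure D1:**
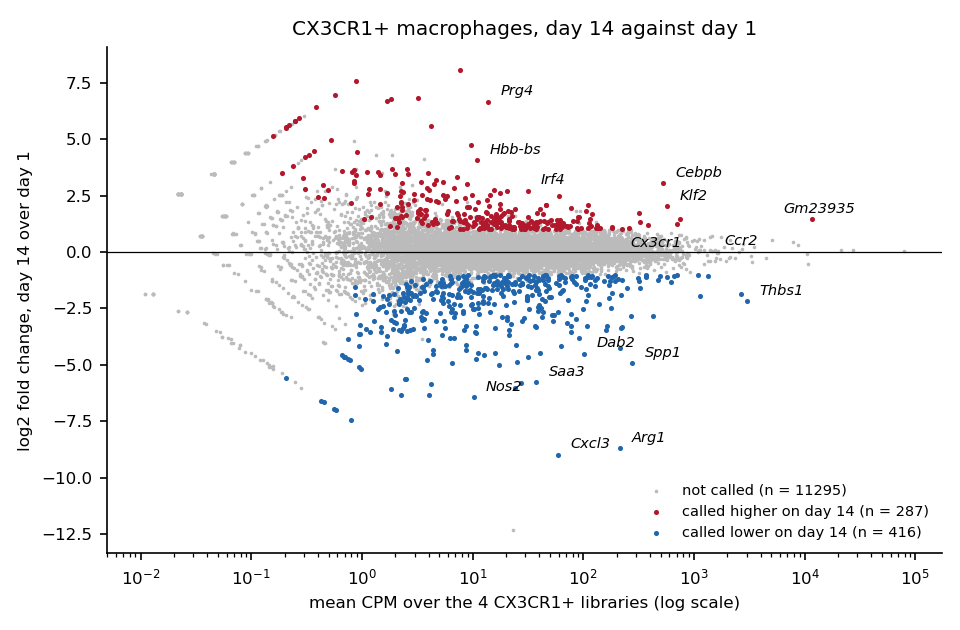
Log2 fold change from day 1 to day 14 (vertical axis) against mean CPM over the 4 CX3CR1+ libraries (horizontal axis, log scale), 1 point per gene tested. Red points are the 287 genes called higher on day 14 and blue points the 416 called lower. Cxcl3 and Arg1 lie lowest among the called genes, while Ccr2 lies on the zero line at over 1000 CPM.

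Of the 6 sort antigens Cd9 was the one DEG when all libraries were used. Ccr2 was at 1369 and 1525 CPM on day 1 and 1427 and 1530.0 CPM on day 14, and its log2 fold change was 0.03 ± 0.22 (SE, adjusted p = 0.95). Its level in CX3CR1+ macrophages therefore stood above 1300 CPM on both days. Cx3cr1 itself was at 133 and 148 CPM on day 1 and 253 and 293 CPM on day 14. The days did not overlap, but at a log2 fold change of 0.96 ± 0.17 (SE, adjusted p = 0.0015) the difference was just short of 2-fold, and it was a DEG without the second day 1 library (1.03) and without the first day 14 library (1.05). Values after ± are standard errors (SE). They are approximate, being the size of the log2 fold change over the square root of the test's F statistic. Ly6c2, one of the genes of the monocyte antigen Ly6C, was at 239 and 222 on day 1 and 395 and 406 CPM on day 14, higher in both day 14 libraries and likewise under 2-fold at 0.80 ± 0.21 (SE, adjusted p = 0.019). Cd9, whose product was gated out, was at 18.4 and 21.1 CPM on day 1 and 6.62 and 6.5 CPM on day 14 and was a DEG at -1.59 ± 0.15 (SE, adjusted p = 7.4e-06). Of 13 classical monocyte genes tested, 1 rose, 3 fell and the median log2 fold change was 0.03. Vcan (versican) and Thbs1 (thrombospondin 1), both secreted matrix proteins of monocytes, fell. Thbs1 was one of the most abundant transcripts on day 1, at 4138 and 5807 CPM on day 1 and 1068 and 1109.6 CPM on day 14. The chitinase-like Chil3 fell by 1.01 on the log2 scale, next to the threshold, and was not a DEG in any of the 4 fits that left out a library (adjusted p up to 0.13). Of 14 patrolling monocyte genes, 3 rose and none fell, with a median log2 fold change of 0.78. These were Ace, an angiotensin-processing peptidase, Spn (CD43) and Ear2, a ribonuclease. All 3 lay near the 2-fold threshold, with log2 fold changes of 1.14, 1.01 and 1.04, and none kept its call in all 4 fits that left out a library (adjusted p up to 0.25, 0.010 and 0.22, with Spn falling under 2-fold).

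**Figure D2:**
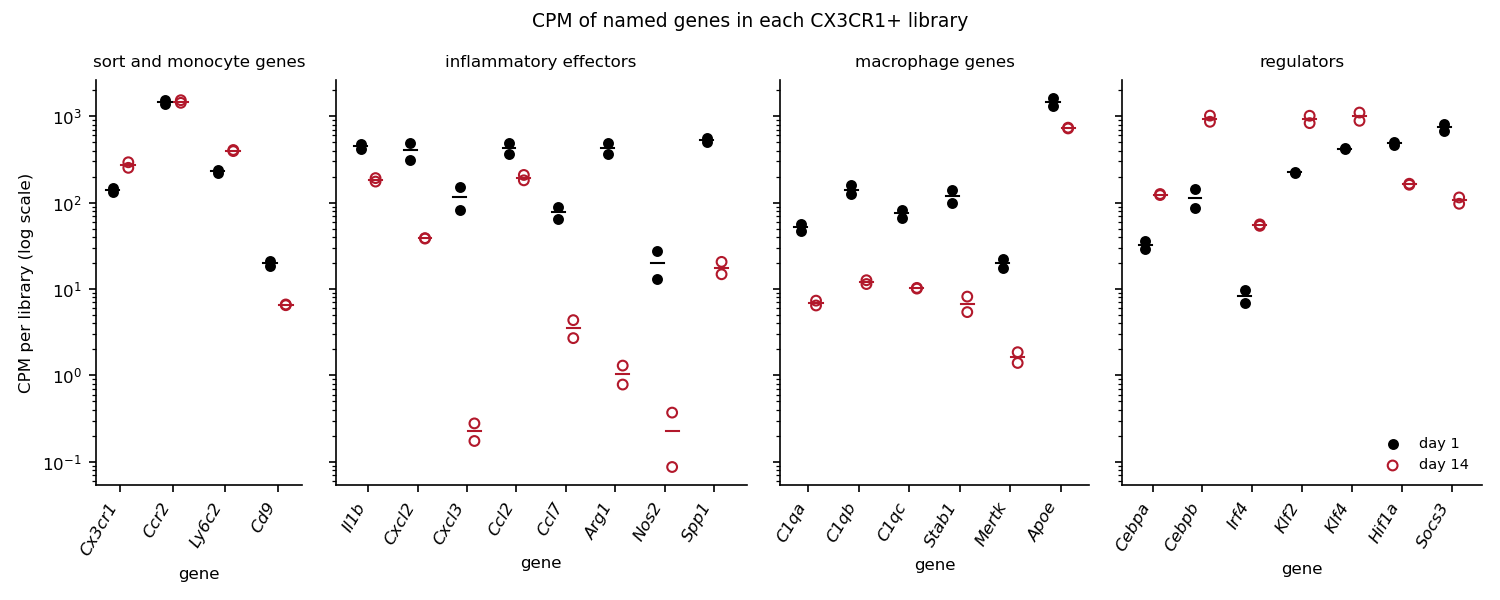
CPM of named genes (vertical axis, log scale) in each CX3CR1+ library, black filled points for day 1 and red open points for day 14, with a bar at the mean of the 2 libraries. Ccr2 overlaps between days, while Cxcl3 and Nos2 lie under 1 CPM in both day 14 libraries.

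Among 19 inflammatory cytokines and antagonists tested, 4 fell and 3 rose, and the median log2 fold change was -0.19. Of the 4, the interleukin 1 family made up 3. Il1b was at 419 and 480.1 CPM on day 1 and 175 and 192 CPM on day 14, a log2 fold change of -1.29 ± 0.18 (SE, adjusted p = 2.2e-04). Il1rn, which encodes the natural antagonist of the IL-1 receptor, fell as well, from 70.3 and 87.1 on day 1 to 18 and 21.2 CPM on day 14. Il1a, the other IL-1 ligand, was low on both days, at 4.3 and 12.5 CPM on day 1 and 0.784 and 1.21 CPM on day 14. Its log2 fold change was -3.06 ± 0.64 (SE, adjusted p = 0.0054), and it was not a DEG without the second day 1 library or without the first day 14 library (adjusted p up to 0.071). Tnfsf14 (LIGHT) was at 18.9 and 12.4 on day 1 and 4.27 and 5.01 CPM on day 14. Its fall was not called without the first day 1 or the first day 14 library (adjusted p up to 0.061). The macrophage cytokines Tnf and Il6 were not DEGs. Tnf was at 29.3 and 31.6 CPM on day 1 and 22.6 and 20.8 CPM on day 14 (log2 fold change -0.49, adjusted p = 0.22), and Il6 lay between 1.92 and 2.90 CPM. Among the gains, Tnfsf13b (BAFF), a B cell survival factor, rose from 1.8 and 1.41 on day 1 to 4.01 and 6.31 CPM on day 14. Il15, which sustains NK and T cells, was at 6.37 and 6.17 on day 1 and 12.9 and 14.9 CPM on day 14, close to the 2-fold threshold at 1.15, and was called in none of the 4 fits without a library (adjusted p up to 0.22). Il12a was called on 1 and 0 reads on day 1 against 3 and 10 on day 14, a ratio of 24.5 with an exact 95% interval of 3.68 to 1040, which covers counting error only. It was not called in 3 of the 4 fits without a library (adjusted p up to 0.36).

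Chemokine ligands had the lowest median log2 fold change of the pathway lists, -1.42, with 9 of 19 members lower and 2 higher (3.47% and 2.39% of all genes). The strongest was Cxcl3 (chromosome 5, 90786103 to 90789600, mm10), which was at 81.7 and 153 CPM on day 1 and 0.174 and 0.278 CPM on day 14. These last are 2 and 3 reads. The ratio of summed counts, scaled to library size, was 507, with an exact 95% interval of 217 to 1563. The log2 fold change was -8.97 ± 0.71 (SE, adjusted p = 1.5e-06). Its neighbours on chromosome 5 that also attract neutrophils through CXCR2 fell too. Cxcl2 was at 313 and 489 CPM on day 1 and 38.8 and 38.3 CPM on day 14, a log2 fold change of -3.38 ± 0.35 (SE, adjusted p = 1.6e-05). Cxcl1 was far lower, at 2.9 and 7.74 on day 1 and 0.174 and 0.835 CPM on day 14, and its call did not hold without the second day 1 or the first day 14 library (adjusted p up to 0.13). Pf4, a platelet chemokine of the same cluster, was at 10.1 and 30.9 on day 1 and 0.61 and 0.928 CPM on day 14. Ppbp, the other, had 76 and 253 reads on day 1 and 2 and 1 on day 14, a ratio of 58.2 with an exact 95% interval of 19.8 to 284. Both were DEGs, Ppbp not without the second day 14 library (adjusted p 0.059). Of the monocyte-attracting CC chemokines, Ccl7 fell much further than Ccl2. Ccl7 was at 64.6 and 89.9 CPM on day 1 and 2.7 and 4.36 CPM on day 14, a log2 fold change of -4.45 ± 0.33 (SE, adjusted p = 8.6e-07), and Ccl2 at 367 and 485 CPM on day 1 and 209 and 181 CPM on day 14, a log2 fold change of -1.13 ± 0.20 (SE, adjusted p = 0.0014). Without the second day 1 library Ccl2 was under 2-fold, at -0.92 on the log2 scale. The transmembrane chemokine Cxcl16 fell from 43.5 and 38.6 on day 1 to 15.3 and 15.5 CPM on day 14. Cxcl14 fell from 3.78 and 3.24 on day 1 to 0 and 0.65 CPM on day 14 and lost its call in 3 of the 4 fits without a library. Ccl3 and Ccl4, which attract monocytes and T cells, were not DEGs. Ccl3 was at 117 and 123 CPM on day 1 and 221 and 157 CPM on day 14, a log2 fold change of 0.66 ± 0.24 (SE, adjusted p = 0.092). The 2 members called higher, Cxcl9 and Ccl5, which attract T cells, stayed under 10 CPM. Cxcl9 was at 1.14 and 0.105 on day 1 and 9.32 and 5.38 CPM on day 14 and Ccl5 at 0.307 and 0.261 on day 1 and 1.39 and 2.69 CPM on day 14. Neither kept its call in all fits that left out a library, with adjusted p up to 0.18 and 0.27.

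The promoters of Cxcl1, Cxcl2 and Cxcl3 are shown because each holds a match to the κB element, the site read by NF-κB. The motif searched was GGGA and TTCC with any 2 bases between them, on both strands, in the 250 bases before the transcription start of genes with 1 window in the RefSeq table (GRCm38.p6). The last 150 of these bases are printed 5′ to 3′, with the bases of the 2 overlapping matches in capitals.
Cxcl1: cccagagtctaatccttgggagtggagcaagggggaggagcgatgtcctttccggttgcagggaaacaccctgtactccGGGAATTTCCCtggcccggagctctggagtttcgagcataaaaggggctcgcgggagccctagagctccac
Cxcl2: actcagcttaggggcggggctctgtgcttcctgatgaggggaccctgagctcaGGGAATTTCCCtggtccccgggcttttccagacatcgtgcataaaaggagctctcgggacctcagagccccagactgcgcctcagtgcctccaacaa
Cxcl3: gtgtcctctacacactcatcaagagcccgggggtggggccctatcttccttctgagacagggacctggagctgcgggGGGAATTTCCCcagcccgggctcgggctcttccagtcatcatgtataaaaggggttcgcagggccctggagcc
They lie at chr5:90891095-90891244, chr5:90903749-90903898 and chr5:90785951-90786100, all on the plus strand. The first match begins 71 bases before the start in Cxcl1, 97 in Cxcl2 and 73 in Cxcl3. Among the chemokine ligands with a single window, 4 of 13 (30.8%) held the motif, against 1.23% of 7047 tested genes and 1.17% of all 22862 promoters. It was found in 6 of 234 (2.56%) lower and in 0 of 156 higher DEGs with a single window. A match is a description of letters and not a bound site.

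Receptors for such signals were lower as well. Of 18 chemokine and chemoattractant receptors tested, 9 were lower and none higher, against 3.47% lower among all genes, and 8 of the 9 calls held in each fit that left out a library. Ccr1, a receptor of CC chemokines, was at 239.7 and 261 CPM on day 1 and 102 and 79.5 CPM on day 14, a log2 fold change of -1.46 ± 0.14 (SE, adjusted p = 1.0e-05). All 3 receptors of complement fragments fell. C5ar1, for the fragment C5a, was at 84.5 and 107 CPM on day 1 and 11 and 12.3 CPM on day 14, a log2 fold change of -3.04 ± 0.17 (SE, adjusted p = 4.9e-08). C3ar1, for C3a, was at 105 and 149 on day 1 and 7.84 and 20.6 CPM on day 14, and C5ar2, the second C5a receptor, at 22.8 and 27.3 on day 1 and 7.32 and 8.72 CPM on day 14. Fpr1, which senses formyl peptides of bacteria and mitochondria, was at 8.78 and 11.7 on day 1 and 3.31 and 2.04 CPM on day 14. Cmklr1, the chemerin receptor, was at 86.1 and 95.5 on day 1 and 13.7 and 12.9 CPM on day 14, and Cxcr2 at 13.4 and 10.7 on day 1 and 1.74 and 1.49 CPM on day 14. Ackr3, a scavenger of chemokines, had no read on day 14 and was at least 3.40-fold lower than on day 1, set against a floor of 3 counts per library. Its call was lost in 3 of the 4 fits without a library (adjusted p up to 0.12).

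Among sensors of microbes and damage the calls were fewer. Of 29 pattern receptors and adaptors 5 fell and none rose, with a median log2 fold change of -0.38. Each of the 5 was called in all fits that left out a library. Clec4d, Clec4e and Clec4n, C-type lectins that bind glycolipids and fungal sugars, had log2 fold changes of -2.33, -1.25 and -1.83. Clec4e was the most abundant of them, at 283 and 340.4 CPM on day 1 and 129 and 134 CPM on day 14. Tlr1 and the amplifying receptor Trem1 had log2 fold changes of -1.42 and -1.07. Myd88 and Tlr4 had adjusted p-values of 0.0057 and 0.0055 with differences under 2-fold (-0.82 and -0.77 on the log2 scale). None of 15 inflammasome genes was a DEG, Nlrp3 being at 172 and 183 CPM on day 1 and 216 and 191 CPM on day 14. Of 22 NF-κB subunits and feedback genes 2 fell. Nfkbia, the inhibitor IκBα, which NF-κB itself induces, was at 219 and 221 CPM on day 1 and 88.6 and 91.2 CPM on day 14, a log2 fold change of -1.29 ± 0.26 (SE, adjusted p = 0.0042). Socs3, the feedback inhibitor of STAT3 signalling, was at 808 and 683 CPM on day 1 and 96.9 and 115 CPM on day 14, a log2 fold change of -2.82 ± 0.27 (SE, adjusted p = 6.8e-06).

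Arg1 and Nos2, enzymes that use arginine, were nearly lost. Arg1 (chromosome 10, 24915221 to 24927484), which turns arginine into ornithine, was at 368 and 483 CPM on day 1 and 0.784 and 1.3 CPM on day 14. The log2 fold change was -8.67 ± 0.31 (SE, adjusted p = 2.5e-10). Nos2, which makes nitric oxide from the same amino acid, was at 13 and 27.3 CPM on day 1 and 0.0871 and 0.371 CPM on day 14, a log2 fold change of -6.42 ± 0.65 (SE, adjusted p = 1.4e-05). The pair is widely used to mark opposed activation states of cultured macrophages, and here both were at most 1.3 CPM on day 14. Of 24 genes for arginine, itaconate and prostaglandin metabolism, 6 fell and 1 rose. Slc7a2, an arginine transporter, and the mitochondrial arginase Arg2 were called lower at -1.97 and -1.33 on the log2 scale, neither in all fits without a library (adjusted p up to 0.17 and 0.084). Pla2g7, a phospholipase that clears platelet-activating factor, was at 357 and 386 CPM on day 1 and 121 and 127 CPM on day 14. Hmox1, which breaks down heme, was at 340.04 and 597 CPM on day 1 and 67.6 and 65.8 CPM on day 14, a log2 fold change of -2.81 ± 0.30 (SE, adjusted p = 2.0e-05). The lipoxygenase Alox15 was the member called higher, at 1.23 and 1.36 on day 1 and 3.22 and 2.41 CPM on day 14, and was called in none of the 4 fits without a library (adjusted p up to 0.29). Ptgs2, the inducible cyclooxygenase, was at 134 and 191 CPM on day 1 and 81 and 105 CPM on day 14 and under 2-fold at -0.81 ± 0.25 (SE, adjusted p = 0.050).

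Genes of glycolysis and of the response to low oxygen were another group with many losses, beside 3.47% lower among all genes. Of 37 tested, 12 were lower and 1 higher, with a median log2 fold change of -0.89, and 9 of the 12 were called in every fit that left out a library. Hif1a, which encodes HIF-1α, was at 467 and 507 CPM on day 1 and 165 and 161 CPM on day 14, a log2 fold change of -1.58 ± 0.15 (SE, adjusted p = 6.4e-06). Egln3, a prolyl hydroxylase that HIF induces and that marks HIF for decay, was at 13.5 and 14.8 on day 1 and 2.96 and 1.58 CPM on day 14, a log2 fold change of -2.63 ± 0.29 (SE, adjusted p = 2.6e-05). Slc2a1, the glucose transporter GLUT1, was at 87.1 and 110.2 CPM on day 1 and 29.5 and 30.1 CPM on day 14, a log2 fold change of -1.73 ± 0.26 (SE, adjusted p = 4.8e-04). The mitophagy gene Bnip3 was at 26.1 and 30.9 on day 1 and 13 and 10.3 CPM on day 14 and the lipid droplet gene Hilpda at 7.47 and 10.2 on day 1 and 1.74 and 1.95 CPM on day 14. Vegfa, the growth factor of blood vessels, was at 87.9 and 109 CPM on day 1 and 38.8 and 39.6 CPM on day 14, a log2 fold change of -1.33 ± 0.20 (SE, adjusted p = 5.3e-04). Mif, a cytokine gene that HIF induces, was at 42.6 and 37.5 on day 1 and 12.8 and 11.4 CPM on day 14. Among the glycolytic enzymes Aldoa was at 652 and 666 CPM on day 1 and 292 and 271 CPM on day 14. Gapdh, at 481 and 506 on day 1 and 246 and 238 CPM on day 14, lay close to the threshold (-1.03 on the log2 scale) and was under 2-fold without the second day 1 library and after a GC correction. Ldha, Pgk1 and Pfkfb3 had log2 fold changes of -0.97, -0.90 and -0.84, just under 2-fold, with adjusted p-values of 6.9e-04, 3.2e-04 and 0.0013. The single member called higher was the glucose transporter Slc2a3, at 2.24 and 3.34 on day 1 and 4.53 and 9.1 CPM on day 14, which was not called without the first day 1 or the second day 14 library (adjusted p up to 0.20). None of 75 respiratory chain subunits was a DEG. Their median log2 fold change was -0.30, with 67 of 75 below 0, against 5615 of 11998 among all genes tested.

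The promoters of 3 of these genes are shown for the core of the hypoxia response element, ACGTG, which HIF binds, searched on both strands in the same windows. Capitals mark the matches, and CACGTG holds 1 on each strand.
Bnip3: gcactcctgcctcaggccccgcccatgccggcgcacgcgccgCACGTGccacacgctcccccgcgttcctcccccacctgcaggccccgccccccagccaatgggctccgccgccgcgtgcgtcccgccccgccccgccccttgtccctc
Hif1a: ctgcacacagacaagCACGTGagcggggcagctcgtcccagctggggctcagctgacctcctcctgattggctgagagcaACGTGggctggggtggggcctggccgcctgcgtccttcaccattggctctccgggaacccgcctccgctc
Slc2a1: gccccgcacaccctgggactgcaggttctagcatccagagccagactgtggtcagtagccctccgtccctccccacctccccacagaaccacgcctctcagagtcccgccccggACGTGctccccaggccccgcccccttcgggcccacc
These windows are chr7:138909507-138909656 on the minus strand, chr12:73907717-73907866 on the plus strand and chr4:119108595-119108744 on the plus strand. The motif occurred in 14 of 21 (66.7%) glycolysis and hypoxia genes with a single window. It occurred in 22.5% of tested genes, 16.3% of all promoters, 56 of 234 (23.9%) lower DEGs and 22 of 156 (14.1%) higher DEGs. Its share among the lower DEGs was thus close to that of all tested genes. The AP-1 site TGANTCA, bound by dimers of Fos and Jun proteins, was in 26 of 234 (11.1%) lower DEGs, 11 of 156 (7.05%) higher DEGs, 4.26% of tested genes and 6.96% of all promoters. CCAAT was in 35.5% of lower and 36.5% of higher DEGs against 37.4% of tested genes and 34.7% of all promoters. The heat shock element was in 0 of 234 lower and 2 of 156 (1.28%) higher DEGs, 0.255% of tested genes and 0.376% of all promoters.

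Of 22 genes of mature macrophages tested, 11 were lower and 1 higher (3.47% and 2.39% of all genes), with a median log2 fold change of -0.86. All 3 chains of complement C1q, which macrophages secrete to tag dying cells, fell. C1qb was at 158 and 124 CPM on day 1 and 12.6 and 11.4 CPM on day 14, a log2 fold change of -3.55 ± 0.44 (SE, adjusted p = 8.0e-05), C1qa at 56.9 and 46.9 on day 1 and 6.45 and 7.33 CPM on day 14 and C1qc at 82.8 and 66.9 on day 1 and 10.1 and 10.3 CPM on day 14. The scavenger receptor Stab1 was at 100.2 and 139 CPM on day 1 and 5.4 and 8.17 CPM on day 14, a log2 fold change of -4.14 ± 0.42 (SE, adjusted p = 1.3e-05). Mertk, a receptor for the engulfment of apoptotic cells, was at 17.5 and 22.2 CPM on day 1 and 1.39 and 1.86 CPM on day 14, a log2 fold change of -3.61 ± 0.62 (SE, adjusted p = 0.0014). These 5 were called in every fit that left out a library. Ms4a7 was not called without the first day 14 library (adjusted p 0.062). Maf, a transcription factor of macrophage differentiation, the Fc receptor Fcgr1, the lipid carrier Apoe and the lipid sensor Trem2 had log2 fold changes of -1.18, -1.54, -1.0 and -1.38. Each was lost in at least 3 of the 4 fits without a library, with adjusted p up to 0.19, 0.15, 0.061 and 0.11. Apoe remained abundant, at 1605 and 1314 CPM on day 1 and 721 and 736 CPM on day 14. The hemoglobin receptor Cd163 was the member called higher, at 0.22 and 0.784 CPM on day 1 and 3.31 and 4.92 CPM on day 14. It was not called without the first day 1 or the second day 14 library (adjusted p up to 0.16). Lyve1, a marker of tissue-resident macrophages, had at most 0.0928 CPM.

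Several regulators of the monocyte lineage rose. Of 19 lineage factors 4 rose and 2 fell. Cebpb (chromosome 2, 167688915 to 167690418), a factor of myeloid and inflammatory genes, was at 143 and 86 CPM on day 1 and 861 and 1015 CPM on day 14, a log2 fold change of 3.03 ± 0.68 (SE, adjusted p = 0.0078). It was the most abundant of the 15 largest increases, and was not called without the second day 1 library (adjusted p 0.098). Cebpa, which sets the granulocyte and monocyte lineage, was at 35.9 and 28.8 CPM on day 1 and 122 and 126 CPM on day 14, a log2 fold change of 1.94 ± 0.31 (SE, adjusted p = 7.1e-04). Irf4, a factor of alternative activation and of dendritic cells, was at 9.75 and 6.95 CPM on day 1 and 55.9 and 53.8 CPM on day 14, a log2 fold change of 2.71 ± 0.41 (SE, adjusted p = 4.9e-04). The Krüppel-like factors Klf2, a brake on monocyte activation, and Klf4, a driver of the monocyte fate, were abundant. Klf2 was at 227 and 223 on day 1 and 1011 and 831 CPM on day 14 and Klf4 at 414 and 428 on day 1 and 1101 and 884 CPM on day 14. Their log2 fold changes were 2.04 ± 0.26 (SE, adjusted p = 9.0e-05) and 1.24 ± 0.21 (SE, adjusted p = 0.0012). Of 29 immediate early genes 4 rose (Klf2, Klf4, Jund and the phosphatase Dusp5) and 3 fell (Ier3, Egr2 and Maff), with a median of 0.20. Ier3 was at 118 and 117 CPM on day 1 and 29.5 and 23.9 CPM on day 14, a log2 fold change of -2.13 ± 0.27 (SE, adjusted p = 9.0e-05). Jund, Dusp5, Egr2 and Maff each lost the call in at least 1 fit without a library (adjusted p up to 0.068, 0.079, 0.081 and 0.20). The first-response factor Nr4a1 was under 2-fold, at 0.77 ± 0.13 (SE, adjusted p = 0.0011).

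Base composition moved with part of this group. Cebpb, Jund and Tusc1 have a single exon and GC contents of 67.2%, 67.1% and 62.7% in the longest transcript, and Scand1, a short SCAN-domain gene at 25.7 and 10.8 on day 1 and 100.3 and 106 CPM on day 14, has 68.4%. The median GC content of tested protein-coding genes was 49.4%. Of 218 genes with a single exon 15 (6.88%) were higher, against 2.22% of 10537 with several exons. Their medians were 0.33 and 0.03 on the log2 scale. Over the 5 classes of GC content, from low to high, the share called higher was 1.49%, 2.09%, 2.51%, 2.46% and 3.02%. After a correction of each library for its trend over GC content, a setting added after the data were seen, 281 genes were higher and 422 lower, and 665 of the 703 DEGs were kept. With it the log2 fold change was 2.4 for Cebpb, 1.77 for Scand1 and 1.07 for Jund, all still called, and 2.65 for Tmem160. Cebpb, Tusc1, Scand1 and Tmem160 also rose in another sorted population, with the values given in the comparisons below. The part of base composition in these gains was not tested beyond this correction, and that of a batch was not tested.

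Interferon-stimulated genes, which cells switch on after interferon binds its receptor, gave few calls. Of 57 antiviral members tested, 2 rose and none fell, against 2.39% higher among all genes. Yet 46 of 57 had a log2 fold change above 0, against 6349 of 11998 among all genes tested, and the median was 0.27. Cmpk2, a mitochondrial nucleotide kinase, was at 18.6 and 16.9 CPM on day 1 and 36.6 and 45.4 CPM on day 14, a log2 fold change of 1.21 ± 0.21 (SE, adjusted p = 0.0015). Ifit2, which binds viral RNA, was at 26 and 22.8 CPM on day 1 and 51.7 and 53.6 CPM on day 14, a log2 fold change of 1.11 ± 0.31 (SE, adjusted p = 0.029). It was called in none of the 4 fits without a library (adjusted p up to 0.18). The regulator Irf7 was at 72.4 and 60 CPM on day 1 and 101 and 111 CPM on day 14, a log2 fold change of 0.68 ± 0.23 (SE, adjusted p = 0.065), and Isg15 at 10.5 and 7.11 on day 1 and 6.71 and 7.7 CPM on day 14, a log2 fold change of -0.29 ± 0.39 (SE, adjusted p = 0.70). None of 13 interferon-inducible GTPases was a DEG. Among 21 interferon signalling genes Irf4 was the single DEG. The motif read by interferon-activated factors (the ISRE, here GAAA, any 2 bases, GAAA) was in 16 of 35 (45.7%) promoters of the antiviral genes with a single window. It was in 2.97% of tested genes, 3.11% of all promoters, 5 of 156 (3.21%) higher and 6 of 234 (2.56%) lower DEGs. Of 5 Ifitm genes, whose products block viral fusion, Ifitm1 fell steeply, from 63.6 and 57.6 on day 1 to 1.57 and 3.25 CPM on day 14, a log2 fold change of -4.66 ± 0.31 (SE, adjusted p = 2.6e-07). Ifitm3, the most abundant, was at 230.5 and 219 CPM on day 1 and 322 and 354 CPM on day 14, under 2-fold at 0.59 ± 0.18 (SE, adjusted p = 0.048). Ifitm10 was called higher on 3 and 1 reads against 12 and 6, a ratio of 8.47 with an exact 95% interval of 2.79 to 34.4, and in none of the fits without a library.

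Genes of antigen presentation and of dendritic cells, which share the monocyte precursor and the gate's antigens in part, were higher in part. Of 14 genes for MHC class II presentation H2-DMb2 was called higher, at 1.71 and 1.57 on day 1 and 3.75 and 5.66 CPM on day 14, and was not called in 3 of the 4 fits without a library. Cd74, the chaperone of MHC class II, was at 696 and 625 CPM on day 1 and 1017 and 1059.8 CPM on day 14, under 2-fold at 0.65 ± 0.16 (SE, adjusted p = 0.013). Of 21 MHC class I genes H2-Q6 was called higher, at 1.8 and 1.52 on day 1 and 6.1 and 5.85 CPM on day 14, and H2-T24 at 24.4 and 25.1 on day 1 and 44.8 and 55.6 CPM on day 14, the latter in 1 of the 4 fits without a library. Both have near-identical relatives to which reads could be misassigned. Of 10 dendritic cell markers 6 were higher and 1 lower (2.39% and 3.47% of all genes), with a median log2 fold change of 2.57. The summed level of the list, members under the filter on low counts included here and in the sums of other markers, was 71.2 and 72.8 CPM on day 1 and 84.2 and 92.4 CPM on day 14. Cd209a, the largest of these gains in CPM, was at 4.92 and 3.08 CPM on day 1 and 27.1 and 26.9 CPM on day 14, a log2 fold change of 2.75 ± 0.38 (SE, adjusted p = 2.0e-04). Mgl2, a C-type lectin, was at 0.351 and 0.523 CPM on day 1 and 4.97 and 4.55 CPM on day 14, a log2 fold change of 3.43 ± 0.50 (SE, adjusted p = 3.2e-04). Both also count among the alternatively activated macrophage genes. Flt3, the receptor of a growth factor for dendritic cells, was at 7.95 and 8.0 CPM on day 1 and 21.5 and 27.1 CPM on day 14, and Clec9a, which marks cross-presenting dendritic cells, at 0.0878 and 0.209 on day 1 and 1.57 and 1.67 CPM on day 14. Zbtb46 and Itgae were called higher at under 3 CPM, Itgae, with no read on day 1, as at least 3.06-fold higher against a floor of 3 counts per library. Flt3, Clec9a, Zbtb46 and Itgae each lost the call in at least 1 fit without a library (adjusted p up to 0.094, 0.078, 0.25 and 0.30). Itgax (CD11c), which dendritic cells carry, fell, from 47 and 54 on day 1 to 17.6 and 16.7 CPM on day 14. Siglech, the marker of plasmacytoid dendritic cells, had 1 read over the 4 libraries. The part of dendritic cells in the gains was not tested.

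Of 16 alternatively activated macrophage genes 5 rose (Cd209a, Mgl2, Irf4, Cd163 and Alox15) and 4 fell (Arg1, Il4ra, Msr1 and Chil3). Il4ra, the shared receptor chain for IL-4 and IL-13, was at 299 and 269.6 CPM on day 1 and 82.5 and 79.3 CPM on day 14, a log2 fold change of -1.81 ± 0.17 (SE, adjusted p = 6.4e-06). The mannose receptor Mrc1 was at 19.8 and 38.2 CPM on day 1 and 33.5 and 45.1 CPM on day 14 and no DEG.

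Of 29 matrix proteins and proteases 11 fell and 4 rose (3.47% and 2.39% of all genes), with a median log2 fold change of -0.55. Spp1 (chromosome 5, 104435118 to 104441050), encoding osteopontin, a secreted adhesive protein of bone and of wound macrophages, was at 508 and 559 CPM on day 1 and 14.8 and 20.6 CPM on day 14, a log2 fold change of -4.91 ± 0.27 (SE, adjusted p = 4.9e-08). Tgm2, which crosslinks proteins, was at 369 and 442 CPM on day 1 and 17.7 and 25.1 CPM on day 14, a log2 fold change of -4.25 ± 0.31 (SE, adjusted p = 7.5e-07). Ecm1 was at 158 and 183 on day 1 and 8.89 and 15.4 CPM on day 14, and the metalloproteinases Mmp14, Mmp19 and Adam8 had log2 fold changes of -2.64, -3.26 and -3.45. Of the 11, Serpinb2 and the inhibitor Timp1 were not called in at least 3 of the fits that left out a library. The matrix protein fibronectin, Fn1, was at 10329 and 11453 CPM on day 1 and 10192 and 10203 CPM on day 14, a log2 fold change of -0.09 ± 0.23 (SE, adjusted p = 0.84). It was among the most abundant genes and was not a DEG. Tgfbi, a matrix protein induced by TGF-β, was at 4191 and 4145 CPM on day 1 and 1133 and 1199 CPM on day 14, a log2 fold change of -1.84 ± 0.17 (SE, adjusted p = 6.8e-06). Tgfb1 itself was at 308 and 296 CPM on day 1 and 288 and 303 CPM on day 14. The 4 called higher, Col1a1, Col3a1, Sparc and Timp2, were each lost in at least 3 of the 4 fits without a library. Without the second day 14 library Col1a1 had an adjusted p of 0.44, and Col3a1 had a log2 fold change of -2.68.

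Of 15 heme and iron genes 4 were lower and 1 (Cd163) higher. Fth1 and Ftl1, the ferritin chains that store iron, were abundant. Fth1 was at 1859 and 1756 on day 1 and 909 and 839 CPM on day 14 and Ftl1 at 488 and 508 on day 1 and 225 and 247 CPM on day 14. Their log2 fold changes were -1.05 ± 0.21 (SE, adjusted p = 0.0044) and -1.08 ± 0.21 (SE, adjusted p = 0.0027), and Fth1 was not called without the second day 14 library (adjusted p 0.059). Of 41 lysosome and phagocytosis genes 6 fell and none rose. Lgmn, the endopeptidase legumain, was at 330.4 and 360.2 CPM on day 1 and 92 and 93.1 CPM on day 14, a log2 fold change of -1.9 ± 0.30 (SE, adjusted p = 7.1e-04). The cathepsin Ctsl and the integrin chain Itgb5 had log2 fold changes of -1.9 and -2.32. Ctsd was near the threshold at -1.05, and was under 2-fold without the second day 1 library and after the GC correction. Of 32 lipid handling genes 5 fell. Abca1, the cholesterol exporter, was at 149 and 187 CPM on day 1 and 24.7 and 34.1 CPM on day 14, a log2 fold change of -2.52 ± 0.33 (SE, adjusted p = 1.3e-04). Fads1, a fatty acid desaturase, was at 19.3 and 13.3 on day 1 and 2.61 and 3.81 CPM on day 14. Nr1h3, which encodes the oxysterol receptor LXRα, was called lower at -1.98, but in none of the fits without a library (adjusted p up to 0.16). Of 23 heat shock and endoplasmic reticulum stress genes 4 fell, all of them folding factors of the endoplasmic reticulum. Hspa5 (BiP) was at 749 and 795 CPM on day 1 and 372 and 355 CPM on day 14, a log2 fold change of -1.09 ± 0.17 (SE, adjusted p = 5.3e-04), and Calr (calreticulin) at 882 and 894 on day 1 and 376 and 329 CPM on day 14, a log2 fold change of -1.33 ± 0.15 (SE, adjusted p = 3.6e-05). Pdia6 and Pdia4 had log2 fold changes of -1.2 and -1.02, and Pdia4 was not called without the second library of either day. Of 16 genes tested in the growth factor list 4 were lower, Vegfa, Inhba, Pdgfa and Tgfbi. Tgfbi encodes the matrix protein given above. Inhba and Pdgfa were at under 15 CPM and were not called in all fits without a library.

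Growth and housekeeping programs held no DEG. None of 45 cell cycle genes was a DEG, with a median of -0.05, and the proliferation marker Mki67 stood at 1583 and 1662 CPM on day 1 and 1756 and 1587 CPM on day 14. None of 77 cytosolic ribosomal proteins (median -0.06) and none of 8 mitochondrially encoded transcripts was a DEG.

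**Figure D3:**
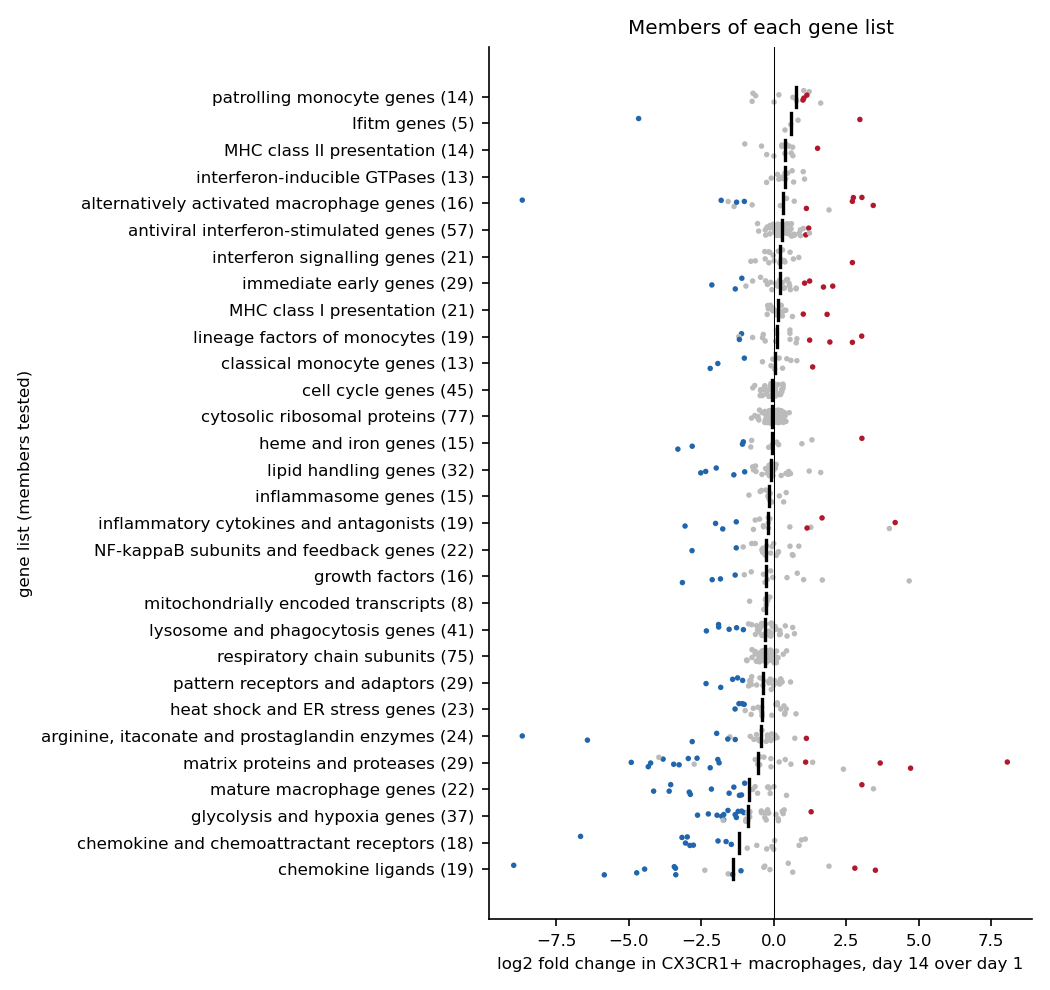
Log2 fold change from day 1 to day 14 in CX3CR1+ macrophages (horizontal axis) of each tested member of 30 gene lists (vertical axis, number of members in brackets), red where called higher, blue where called lower and grey otherwise, with a black bar at the list's median. Chemokine ligands have the lowest median (-1.42) and patrolling monocyte genes the highest (0.78).

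Markers of other cells were checked beside these results. Of 17 neutrophil markers 6 fell and 1 rose, and their summed level was 1815 and 1726 CPM on day 1 against 878 and 985 CPM on day 14. The calprotectin chain S100a8 was at 317 and 278 on day 1 and 22.4 and 39.8 CPM on day 14 and its partner S100a9 at 311 and 291 on day 1 and 31.4 and 76.7 CPM on day 14. Lcn2, a siderophore-binding protein, was at 429.7 and 385 CPM on day 1 and 38.5 and 43.9 CPM on day 14, a log2 fold change of -3.31 ± 0.39 (SE, adjusted p = 5.0e-05). Cxcr2, given above, Clec5a, a receptor of myeloid cells, and the glucosidase gene Mgam were the other losses. Clec5a was at 111 and 121 on day 1 and 58.4 and 51.4 CPM on day 14 and fell under 2-fold in 1 fit without a library, and Mgam, at 4.44 and 3.66 on day 1 and 0.959 and 1.3 CPM on day 14, lost the call in 3 (adjusted p up to 0.15). The other 10 markers were not called. Of these, Csf3r, the receptor of the growth factor G-CSF, was at 209.6 and 218 CPM on day 1 and 232 and 238 CPM on day 14, Mmp8 at 218 and 219.98 on day 1 and 151 and 163 CPM on day 14, and Ly6g was near 0 throughout. Retnlg was called higher, at 0.395 and 1.62 on day 1 and 4.36 and 5.38 CPM on day 14. The part of neutrophil RNA in the losses was not tested. Stromal and bone cell markers, 4 of 8 called higher but none in every fit without a library, summed to 46.6 and 50.02 CPM on day 1 and 75.2 and 139 CPM on day 14. Erythroid and platelet markers, 3 of 8 called higher and 2 lower, summed to 18.9 and 48.3 CPM on day 1 and 13.8 and 75.6 CPM on day 14. Of these calls the loss of Pf4 held in every fit without a library. Itga2b lost its call in all 4 (adjusted p up to 0.19), Car2 in 2 (up to 0.36), and Ppbp and Hbb-bs in 1 each (up to 0.059 and 0.13). Prg4, the lubricin of joint lining, was at 0.351 and 0.157 on day 1 and 0.959 and 53.5 CPM on day 14. Of the 15 largest increases Hbb-bs was not called without the second day 14 library (adjusted p 0.13), and Prg4 then fell under the filter on low counts. Osteoclast markers, 2 of 7 called lower, summed to between 168 and 180 CPM. Ocstamp lost its call in all 4 fits and Acp5 in 2 (adjusted p up to 0.16 and 0.16). No B and plasma cell marker of 6 and no mast cell and basophil marker of 7 was called. Of 3 T and NK cell markers Il7r was lower, at 7.55 and 9.41 on day 1 and 1.05 and 2.88 CPM on day 14, and of 7 eosinophil markers Il5ra was called higher on 4 and 8 reads against 0 on day 1, at least 3.78-fold. These calls were lost in 2 and 3 of the 4 fits without a library (adjusted p up to 0.15 and 0.13). In total 8 of the 15 largest increases and each of the 15 largest decreases were called in every fit that left out a library.

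**Figure D4:**
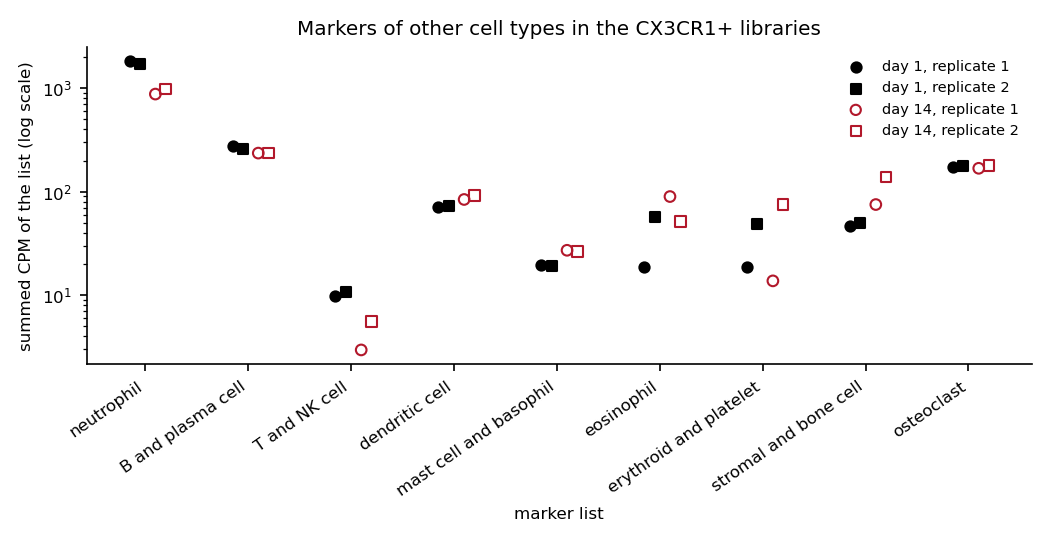
Summed CPM (vertical axis, log scale) of 9 marker lists of other cell types (horizontal axis) in each CX3CR1+ library, black filled for day 1 and red open for day 14, circles for replicate 1 and squares for replicate 2. Neutrophil markers are lower in both day 14 libraries, and stromal markers are highest in the second day 14 library.

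Further large changes were in genes outside the lists. Dab2, an endocytic adaptor, was at 183 and 206 CPM on day 1 and 6.8 and 10.5 CPM on day 14, a log2 fold change of -4.49 ± 0.25 (SE, adjusted p = 4.9e-08). Lrg1, a secreted glycoprotein, was at 59.4 and 47.4 CPM on day 1 and 1.13 and 0.743 CPM on day 14, a log2 fold change of -5.81 ± 0.35 (SE, adjusted p = 7.8e-08). Saa3, the acute-phase serum amyloid of mouse macrophages, was at 78.2 and 69.4 CPM on day 1 and 1.48 and 1.21 CPM on day 14, a log2 fold change of -5.77 ± 0.33 (SE, adjusted p = 4.9e-08). The protease inhibitor Spint1, the ectonucleotidase Nt5e (CD73) and the membrane glycoprotein Pdpn (podoplanin) had log2 fold changes of -6.03, -4.85 and -5.0. Igfbp6, Wfdc21 and Spsb1 complete the 15 largest losses, at -4.92, -4.49 and -4.48. Among the gains, Itgb3, the β3 integrin chain, was at 4.13 and 6.85 CPM on day 1 and 34.3 and 36 CPM on day 14, a log2 fold change of 2.69 ± 0.24 (SE, adjusted p = 4.5e-06). Chn2, a Rac regulator, was at 1.1 and 1.57 CPM on day 1 and 13.5 and 12.8 CPM on day 14, a log2 fold change of 3.3 ± 0.31 (SE, adjusted p = 6.8e-06). Lyz1, Zfyve28, Smim5, Tmem160, Tusc1 and Hist2h2ab rose at between 10 and 35 CPM on day 14, with log2 fold changes of 2.37 to 3.01. Zfyve28 lost its call in all 4 fits without a library and Hist2h2ab in 2 (adjusted p up to 0.23 and 0.11). Lyz1 has a near-identical paralog, Lyz2, so its count is uncertain.

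The change was next set against that of CD9+ macrophages, the other macrophages of the same tissue, in the interaction term of the same model. This asks which genes moved differently in CX3CR1+ macrophages. In CD9+ macrophages 988 genes (8.23%) were DEGs over time. Of the 703 in CX3CR1+ macrophages, 289 (41.1%) were DEGs in the same direction there, which is 29.3% of the CD9+ DEGs. The difference itself was called for 112 genes (0.933%) with a more positive and 161 (1.34%) with a more negative change in CX3CR1+ macrophages. Among the 416 lower DEGs, 101 carried a called difference of either sign from CD9+ macrophages, against 17 of the 287 higher. These DEGs were chosen on the CX3CR1+ change that also enters the difference, which favours such calls. The model takes the libraries as independent, although the study's methods give fewer mice than that would need, so libraries of different populations of one day can share mice. With the library's number within each day as a block, a setting added after the data were seen, the calls were 122 and 190. The balance moved with scaling. With upper quartile factors the calls were 82 and 183, and with library size alone 54 and 260, as the median of the difference over all genes went from 0.04 to -0.05 and -0.19.

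Several genes had a more negative change than in CD9+ macrophages, where some of them did not fall. C1qa, C1qb and C1qc had changes of 0.53, 0.35 and 0.91 on the log2 scale in CD9+ macrophages. The differences were -3.45, -3.9 and -3.79 (adjusted p 0.011, 0.0020 and 0.0022). Stab1 and Dab2 changed by -0.30 and -0.83 in CD9+ macrophages, differences of -3.85 and -3.66 (adjusted p 0.0012 and 3.6e-05). Lrg1 was at 60.6 and 37.6 mean CPM on day 1 and day 14 in CD9+ macrophages, and the difference of -5.12 had an adjusted p of 2.8e-05. In CD9+ macrophages the mean CPM on day 1 and day 14 was 1173 and 1925 for S100a8, 1619 and 1466 for Lcn2 and 67.6 and 82 for Wfdc21. Their differences were -3.97, -3.16 and -4.75 (adjusted p 0.0046, 0.0039 and 0.0024). Spp1, Cxcl3 and Arg1 fell in both, and further in CX3CR1+ macrophages, with differences of -1.99, -4.42 and -2.72 (adjusted p 0.0039, 0.025 and 0.0014). Other large losses were shared. Nos2, Saa3 and Spint1 had log2 fold changes of -7.74, -5.35 and -5.03 in CD9+ macrophages, with no called difference. Iglc2, Steap4, Reps2, Cd276, Gas6 and Slamf9, with differences under -5 on the log2 scale, were at most 13 CPM in CX3CR1+ macrophages. All but Reps2 lost the called difference under at least 1 alternative (adjusted p up to 0.29 in Iglc2). Gas6, a ligand of Mertk, and Reps2 rose in CD9+ macrophages, Gas6 from 0.828 to 21.7 mean CPM and Reps2 from 3.70 to 35.5.

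Other inflammatory genes had a more positive change in CX3CR1+ than in CD9+ macrophages. Il1b and Ccl2 fell less, with differences of 1.24 and 1.5 (adjusted p 0.014 and 0.0084). Vcan did so too, by 1.81 (adjusted p 0.0067). Fn1, Tlr2, Nlrp3 and Cd14 were DEGs in neither direction in CX3CR1+ macrophages and fell in CD9+ macrophages (log2 fold changes -1.89, -1.52, -1.56 and -1.97), with differences of 1.8, 1.15, 1.76 and 1.18 (adjusted p 0.0072, 0.042, 0.021 and 0.027). Thbd, the anticoagulant thrombomodulin, rose from 84 and 92.8 on day 1 to 190.4 and 179.5 CPM on day 14 in CX3CR1+ macrophages, against a change of -1.35 in CD9+ macrophages, a difference of 2.41 (adjusted p 0.0017). The schlafen gene Slfn1 differed by 2.1 (adjusted p 0.0027). Of the antiviral interferon-stimulated genes, which had a median change of -0.53 in CD9+ macrophages, 6 of 57 were called, all more positive, against 0.933% of all genes. Beside Slfn1 and Slfn8, these were Rsad2, Ifi203, Ifi211 and Slfn5, at 1.74, 1.27, 1.38 and 1.32 (adjusted p 0.011, 0.020, 0.023 and 0.038). Counts of called differences moved with single libraries. Of the CD9+ macrophages, they were 370 and 537 without the first day 1 library, 136 and 280 without the second, 57 and 127 without the first day 14 library and 80 and 99 without the second. Of the CX3CR1+ macrophages, they were 46 and 119, 52 and 102, 47 and 76, and 41 and 96 in the same order.

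**Figure D5:**
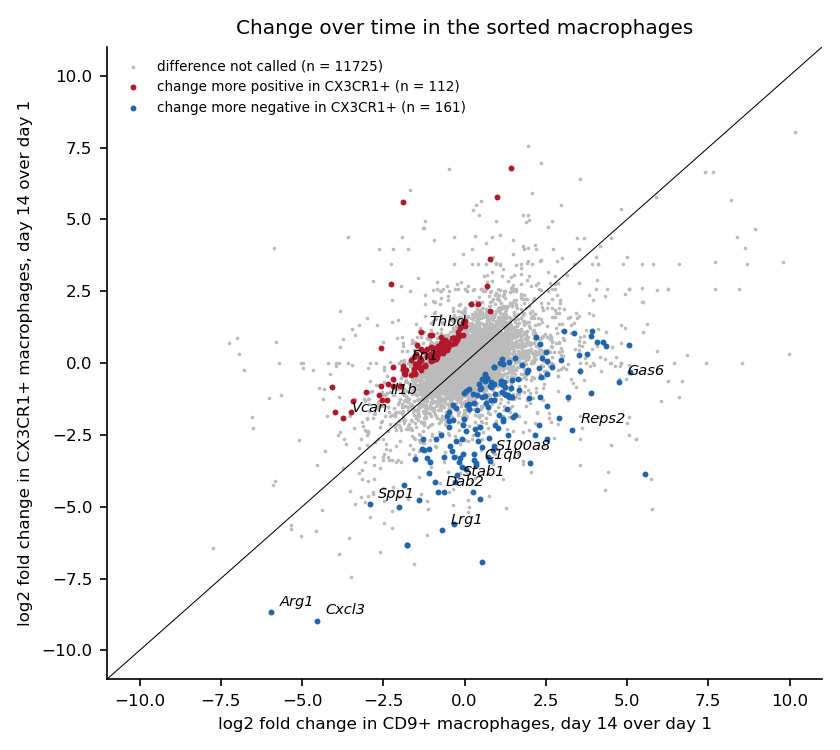
Log2 fold change from day 1 to day 14 in CX3CR1+ macrophages (vertical axis) against that in CD9+ macrophages (horizontal axis), 1 point per gene tested, with the line of equal change. Red and blue points are the 112 and 161 genes whose change differed between the populations, more positive and more negative in CX3CR1+ macrophages. Stab1, Dab2, Lrg1 and C1qb lie far below the line, within 1 of 0 on the horizontal axis.

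Against F4/80- myeloid cells the change differed in fewer genes, 61 (0.508%) more positive and 60 (0.5%) more negative in CX3CR1+ macrophages. In F4/80- cells 390 genes (3.25%) were DEGs over time, and 206 of the 703 DEGs of CX3CR1+ macrophages (29.3%) were among them in the same direction, which is 52.8% of the F4/80- DEGs. Arg1, Nos2, Saa3 and Spint1 had log2 fold changes of -10.45, -8.81, -5.32 and -4.75 in F4/80- cells, with no called difference. Some of the largest gains were shared as well. Cebpb, Tusc1, Scand1, Tmem160 and Hist2h2ab changed by 3.01, 1.72, 2.52, 2.56 and 2.75 in F4/80- cells, all DEGs there with no called difference. Irf4, Itgb3 and Chn2 rose less there, by 0.69, 0.70 and 0.71, and were not DEGs. The difference was called in Itgb3 and Chn2. The cause of the shared gains was not tested. Lrg1, Wfdc21, S100a8, the adhesion molecule Cdh1, the receptor Igf2r, which carries enzymes to lysosomes, and the sulfotransferase Chst11 fell in CX3CR1+ macrophages and changed by between -0.39 and 0.58 on the log2 scale in F4/80- cells. Their differences ran from -5.42 in Lrg1 (adjusted p 2.1e-05) to -3.62 in S100a8 (adjusted p 0.012). In the other direction stood Flt1, a VEGF receptor, at 7.6 and 5.64 CPM on day 1 and 26.8 and 30.4 CPM on day 14 in CX3CR1+ macrophages, a difference of 3.32 (adjusted p 4.5e-04). Retnlg and Mmp9, which fell in F4/80- cells from 110.5 to 11.4 and 471 to 36.6 mean CPM, differed by 5.59 and 5.03 (adjusted p 5.6e-05 and 0.0033). Cd74 and the MHC class II genes H2-Ab1, H2-Aa and H2-Eb1 also differed, by 1.34, 1.23, 1.13 and 1.41, with adjusted p of 0.0070, 0.016, 0.046 and 0.041 and changes below 0 in F4/80- cells. Without any single library of either population on either day the called differences numbered between 55 and 79.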

How the data were processed

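The libraries were prepared by the authors with a stranded SMART-Seq kit from sorted cells, trimmed with Cutadapt, aligned with STAR to the mouse genome (mm10) and counted per gene over Gencode exons. The deposited values are raw read counts per gene for each library, with no normalization, in 1 table that holds all libraries, and counting is not stated to use strand, so overlapping antisense genes may share reads. Samples were grouped by population and day as labelled, with 2 libraries in each of 8 groups.

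From the counts, 11998 of 20200 genes with a group mean of at least 3 CPM in at least 1 group were tested in edgeR 4.0.16 (R 4.3.3) with TMM scaling, 1 coefficient per group, 16 libraries, the quasi-likelihood test and Benjamini-Hochberg adjustment. DEGs had an adjusted p under 0.05 and a log2 fold change of at least 1 in size. CPM values carry the TMM factors. Differences between populations are contrasts of the same model. Alternatives were DESeq2 1.42.0, other filters and scalings, thinning, replicate blocks and leaving out each library. The script was tested on simulated data. Promoter sequences are RefSeq's (GRCm38.p6), searched in the 250 bases before the start, and GC content is from GENCODE (GRCm38). Named genes were the 15 largest increases and decreases among DEGs that do not overlap between days and have at least 10 mean CPM on 1 day (predicted genes, Rik names and pseudogenes left out), the 10 largest called differences each way against each population, the sort antigens, Ccr2, Ly6c2 and called list members. Other genes were named after their values were seen. The members, gene lists and rules were chosen with earlier results of these data known. Depth ran from 9996159 to 19814119 reads in the CX3CR1+ libraries. Counting intervals cover counting error only. Nothing says that same-numbered libraries of different days are paired, and p-values measure the spread between pools. Some genes are not reported here.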

Additional observations from a re-analysis of the deposited data

Results flagged for a closer look

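Every result below is a difference between the change from day 1 to day 14 in CX3CR1+ macrophages and the change in another population, taken from the interaction term of the same edgeR model with Benjamini-Hochberg adjustment. Values are log2, and a negative value means a more negative change in CX3CR1+ macrophages. No cause was tested.

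Against CD9+ macrophages 112 genes were called with a more positive and 161 with a more negative change. Negative differences among complement and phagocyte genes were -3.45 for C1qa, -3.9 for C1qb, -3.79 for C1qc, -3.85 for Stab1, -3.66 for Dab2, -3.08 for Ms4a7 and -5.4 for Gas6. Chemoattractant receptors differed by -3.46 (C3ar1) and -1.78 (C5ar1), and the chemokine Cxcl3 by -4.42. Matrix genes differed by -1.99 (Spp1), -2.39 (Tgm2), -2.73 (Ecm1), -1.77 (Mmp14), -2.38 (Adam8), -1.95 (Timp2) and -3.36 (Serpinb2). Genes that neutrophils also express differed by -3.97 (S100a8), -2.85 (S100a9), -3.16 (Lcn2) and -4.75 (Wfdc21). The arginase gene Arg1 differed by -2.72, while its mitochondrial relative Arg2 differed by 2.1, the opposite sign. Surface antigens differed by -1.72 (Cd9), -1.31 (Itgax), -1.48 (Cd24a), -5.51 (Cd276), -5.39 (Slamf9) and -2.97 (Pdpn). The remaining negative differences were -5.12 (Lrg1), -2.03 (Acp5), -2.33 (Ear2), -5.64 (Reps2), -7.47 (Steap4), -9.4 (Iglc2), -5.3 (Bach2os), -5.21 (Ceacam16) and -5.2 (Chit1). Of these, Bach2os, Ceacam16 and Chit1 rest on 2, 1 and 1 reads on day 14, where the ratios of counts were 54.7 (exact 95% interval 14.9 to 455), 31.3 (5.41 to 1258) and 7.43 (1.13 to 314), and Steap4 was at least 4.14-fold lower on day 14. Iglc2, an immunoglobulin chain, was at 13 and 0.157 CPM on day 1 and 0.174 and 0.743 CPM on day 14 in CX3CR1+ macrophages and no DEG there. Of the 10 largest differences each way, those of Lrg1, Reps2, Pnpla1, Slfn1 and Thbd were called under every alternative in which they were tested. Calls were lost under at least 1 in Arg2 (adjusted p up to 0.14), Iglc2 (0.29, with differences from -11.28 to -4.09), Steap4 (0.15), Bach2os (0.16), Ceacam16 (0.17), Chit1 (0.16), Cd276 (0.053), Gas6 (0.065) and Slamf9 (0.082).

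Positive differences from CD9+ macrophages were 1.24 for Il1b, 1.5 for Ccl2, 1.81 for Vcan, 1.11 for Bnip3, 2.41 for Thbd, 2.1 for Slfn1 and 1.99 for Itgb3. Others were 3.27 (Map1b), 2.28 (Oplah), 3.11 (Plekha6), 2.83 (Pik3c2b), 5.0 (Pnpla1), 5.36 (Upb1) and 7.5 (Col2a1). Pik3c2b and Pnpla1 had 5 reads each on day 1, with ratios of day 14 to day 1 of 13.2 (exact 95% interval 5.14 to 43.1) and 7.16 (2.58 to 24.5), and Upb1 had 2, with a ratio of 135 (36.6 to 1123). Col2a1, a cartilage collagen, was at 0.307 and 0 CPM on day 1 and 14.9 and 1.58 CPM on day 14, highest in the first day 14 library. The calls of Map1b, Oplah, Plekha6, Pik3c2b, Upb1 and Col2a1 were lost under at least 1 alternative (adjusted p up to 0.18, 0.15, 0.13, 0.17, 0.12 and 0.15).

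Against F4/80- myeloid cells 61 genes were called with a more positive and 60 with a more negative change. The negative differences were -5.42 (Lrg1), -5.17 (AA467197), -5.01 (Cd276), -4.6 (Wfdc21), -4.01 (Cdh1), -3.81 (Slc41a2), -3.75 (Igf2r), -3.62 (Chst11), -3.62 (S100a8) and -3.54 (Ifnlr1). AA467197 had 1 read over the day 14 libraries, a ratio of 95.0 (exact 95% interval 16.8 to 3775), and Ifnlr1 had 3, a ratio of 13.3 (4.37 to 65.8). The positive differences were 9.38 (Cd55), 5.59 (Retnlg), 5.36 (Pnpla1), 5.03 (Mmp9), 3.32 (Flt1), 3.06 (Pik3c2b), 2.83 (Fpr1), 2.64 (Klrk1), 2.6 (Chn2) and 2.49 (Mirt1). Cd55 had no read on day 1 and 4 and 34 on day 14, at least 12.1-fold higher. Calls were lost under at least 1 alternative in AA467197, Cd276, Slc41a2, S100a8 and Ifnlr1 (adjusted p up to 0.23, 0.16, 0.087, 0.10 and 0.13) and in Cd55, Pik3c2b, Fpr1 and Klrk1 (up to 0.62, 0.18, 0.099 and 0.22).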

How the results depend on the processing

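Of 169 gene values of the comparison of day 14 with day 1, 94 kept their direction and their side of the threshold under every alternative in which they were tested. The 703 DEGs became 267 (123 higher, 144 lower) where 3 CPM were required in every group, since fewer genes were then tested, 1513 (785 and 728) with no minimum fold and 389 (126 and 263) with glmTreat against a fold of 1.5. Leaving out 1 library gave 434 to 523 DEGs (150 to 194 higher, 274 to 329 lower). List members called went from 143 to 64 under the filter in every group and 94 under glmTreat, and named genes from 30 to 4 under that filter. The 273 differences from CD9+ macrophages became 439 with DESeq2, 129 under the filter in every group, 103 with glmTreat, 156 in the 8 macrophage libraries and 123 to 907 without 1 library. The 121 from F4/80- cells became 217, 48 with glmTreat, and 55 to 79 without 1 library. The cause of these moves was not tested. Ccr2, never a DEG, changed sign on the log2 scale at values near 0, to -0.000293 with upper quartile factors, -0.068 with the GC correction (chosen after seeing the data) and from -0.042 to 0.11 without 1 library. Col3a1 ran from -2.68 without the second day 14 library to 10.67 without the second day 1 library.

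With the replicate number as a block, 725 genes were called, 689 of them among the 703, with 310 differences from CD9+ and 143 from F4/80- cells. Same-numbered libraries of the days correlated at 0.022 in their deviations across genes, a value that cannot tell whether they share more than a number. Same-numbered libraries of CX3CR1+ and CD9+ macrophages correlated at 0.061 on day 1 and 0.14 on day 14, and those of CX3CR1+ macrophages and F4/80- cells at 0.068 and 0.16. With the number within each day as a block, chosen after seeing the data, 312 differences from CD9+ and 142 from F4/80- cells were called, 260 and 116 of them among those called without it. Thinned to the smallest total of 9233952 reads, 699 genes were DEGs.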

Other observations

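Genes at 100 mean CPM or more on one of the days that were in no list held 25 higher and 27 lower DEGs. They include the RNA-decay factors Zfp36l2 and Zfp36l1, close relatives that moved in opposite directions. Zfp36l2 was at 427 and 382 CPM on day 1 and 1053 and 1139.5 CPM on day 14, a log2 fold change of 1.44 ± 0.26 (SE, adjusted p = 0.0017), and Zfp36l1 at 253 and 301 CPM on day 1 and 65.6 and 69.98 CPM on day 14, a log2 fold change of -2.03 ± 0.15 (SE, adjusted p = 9.0e-07). Both belong to the family of tristetraprolin, whose members bind AU-rich elements of messenger RNAs. No day overlapped the other for either gene. Among the other gains, Padi2, which converts arginine in proteins to citrulline, was at 44.3 and 40.8 CPM on day 1 and 162 and 193 CPM on day 14, a log2 fold change of 2.06 ± 0.17 (SE, adjusted p = 2.1e-06). Cd177, best known as a neutrophil surface antigen, was at 53.5 and 58.6 CPM on day 1 and 167 and 197 CPM on day 14, a log2 fold change of 1.7 ± 0.35 (SE, adjusted p = 0.0048), while S100a8, S100a9 and Lcn2 fell. The coagulation factor gene F5 was at 41.5 and 50.9 on day 1 and 137 and 132 CPM on day 14, a log2 fold change of 1.54 ± 0.20 (SE, adjusted p = 1.1e-04).

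Among the other losses, Emp1, a membrane protein, was at 158 and 230.3 CPM on day 1 and 18.3 and 22.3 CPM on day 14, a log2 fold change of -3.26 ± 0.37 (SE, adjusted p = 3.4e-05). Lmna, which encodes lamin A, was at 114 and 155 CPM on day 1 and 17 and 23.9 CPM on day 14, a log2 fold change of -2.72 ± 0.31 (SE, adjusted p = 4.2e-05). Itga5, the α chain of the fibronectin receptor, was at 193 and 186 CPM on day 1 and 61.1 and 72.6 CPM on day 14, a log2 fold change of -1.5 ± 0.23 (SE, adjusted p = 4.7e-04), while fibronectin itself (Fn1) was not a DEG. Bhlhe40, a transcription factor of activated macrophages, had a log2 fold change of -1.41 ± 0.23 (SE, adjusted p = 9.3e-04). The immunoglobulin gene Ighg1 was at 0 and 93.7 CPM on day 1 and 0 and 0 CPM on day 14 and was not a DEG.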
